A study of Homo sapiens with 2 samples.

Results

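Of the 4134 distal NRF1 peaks, those with a centre over 2 kb from every annotated transcription start site (TSS), 501 held no antioxidant response element (ARE) anywhere between their edges. An ARE was any match to TGA(G/C)NNNGC on either strand. These 501 peaks made up 12.1% of distal peaks. Of the 5683 peaks deposited 5673 could be searched, and 12.6% of those lacked an ARE. The sequence TGA(G/C)TCA, the palindrome bound by AP-1, was present in 235 of them and absent from 266. Of the 266 peaks without the palindrome, 125 held TGATTCA or TGAATCA, in which the middle base of the palindrome is A or T, and in 105 of these 125 the bases GC followed it, as they do in an ARE.

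NRF1, encoded by NFE2L1, is a cap'n'collar transcription factor that is held in the endoplasmic reticulum membrane and degraded while proteasomes work, and that reaches the nucleus as a cleaved protein when they are blocked. It binds DNA as a dimer with a small MAF protein, and the ARE is a composite of a core shared with AP-1, TGA(G/C), and a GC-containing end read by the MAF partner. AP-1 dimers of FOS and JUN proteins share the basic leucine zipper fold with NRF1 and read TGA(G/C)TCA without the GC. TGACTCAGC or TGAGTCAGC, here called a full ARE, therefore always contains the palindrome, while other AREs, here called degenerate, need not.

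The peaks came from HCT116 cells, an established human colorectal cancer line, kept in 1 µM MG132, a proteasome inhibitor, for 16 h. One chromatin sample was precipitated with an antibody to NRF1, and both it and the input sample of the series came from MG132-treated cells. The input library was not analysed here. Each peak has a MACS score, 10 times the negative log10 of its p-value. As there is 1 ChIP library, peaks are not replicates, no test was made, depth is unknown, and the 95% intervals below cover counting error only.

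The 5 highest-scoring peaks with the palindrome are shown first, so that the bases around it can be read. Each line gives the palindrome nearest to the peak centre with 10 bases on each side, on hg19, on the strand named and in the orientation TGACTCA. Capitals mark the palindrome, and the coordinates are those of the 7 capital bases.
SCHIP1, chr3:159590359-159590365, plus strand: ctacacttgtTGACTCAccataaggaa
ABCC2, chr10:101535812-101535818, minus strand: tagaaaagaaTGACTCAtctacatgat
RNU6-450P, chr17:57930705-57930711, minus strand: agcatacgccTGACTCAtggtaaagac
SMYD3, chr1:246320225-246320231, plus strand: gaccctagaaTGACTCAggtgtctggt
SEC14L1, chr17:75229925-75229931, minus strand: ctccacgcggTGACTCAcccatccagg

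The names are those of the gene that holds the peak centre or, between genes, of the gene with the nearest TSS. The peak in SMYD3 lay nearest to a TSS of the pseudogene CHCHD4P5, 21.9 kb away. In none of these lines does GC follow the palindrome on the strand shown, and the same holds for the opposite strand, since GC there would make an ARE.

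Peaks without the palindrome are shown by the 9 bases closest to TGACTCAGC or TGAGTCAGC, in capitals, to show which base departs from a full ARE. They are from 5 of the 6 highest-scoring peaks of that kind, and the line for SLC7A11 is added because that gene is on a list of antioxidant genes described further on.
BICDL1, chr12:120524828-120524836, plus strand: gccggcaacgTTAGTCAGCacattcctgg
ABCB9, chr12:123410475-123410483, minus strand: tgttgtggcaTGAATCAGCactttattcc
CFAP54, chr12:96895010-96895018, minus strand: aggaacacgaTGATTCAGCatttcctgtt
TMEM17, chr2:62729031-62729039, minus strand: tgctgttttcTCACTCAGCcatccattcc
ZFHX3, chr16:73210851-73210859, plus strand: agcatcagcaTGACTAAGTcatggaagca
SLC7A11, chr4:139173882-139173890, plus strand: tgttgccaaaTGATTCAGCaaaaatatat

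The sites of ABCB9, CFAP54 and SLC7A11 depart from a full ARE at position 4, counted from the first T, and those of BICDL1 and TMEM17 depart at position 2. All 5 of these end in TCAGC. That ending follows from the choice of peaks, since a lone departure within it would leave an ARE or the palindrome. The site of ZFHX3 holds TGACTAA, which on the opposite strand reads TTAGTCA, the same 7 bases as at BICDL1. The site of TMEM17 lay 155 bp from the peak centre, outside the central 200 bp used in later counts.

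Across the 501 peaks, 4 kinds could be separated. The AP-1 palindrome was found in 235 peaks, or 46.9% (42.6 to 51.3%). The weak-centred palindrome, TGATTCA or TGAATCA, whose middle pair is the weakly bonded A and T, was found without the AP-1 palindrome in 125 peaks, or 24.95% (21.4 to 28.9%). A form with an altered second base, TTACTCA or TTAGTCA, was found without either palindrome in 39 peaks, or 7.78% (5.75 to 10.5%). None of these was found in 102 peaks, or 20.4% (17.1 to 24.1%). The last 3 kinds were defined after a search of 8-base words in these peaks had been seen, so their shares in these peaks describe that search.

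**Figure D1:**
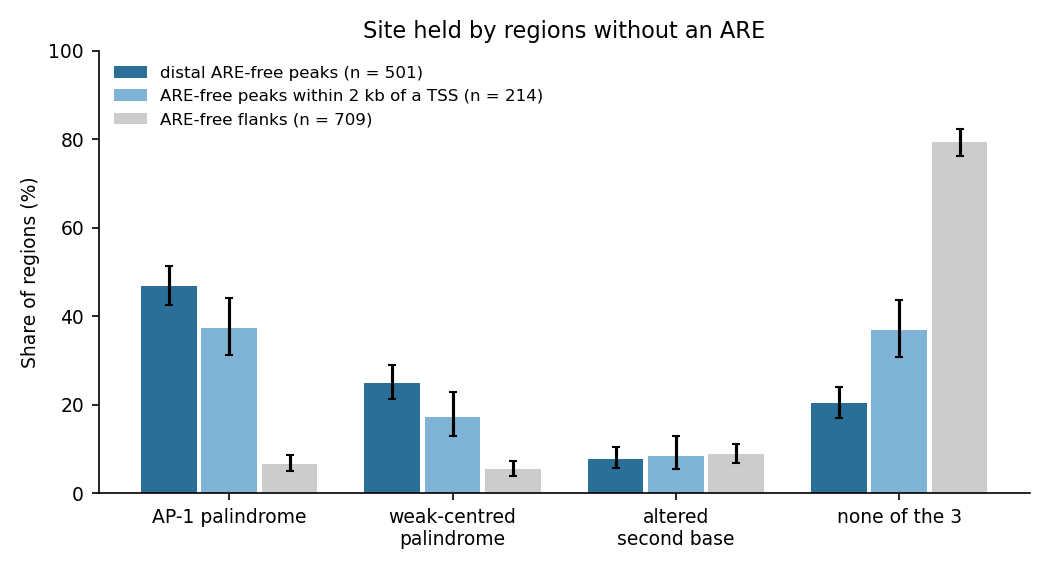
Share of regions (%, vertical axis) that held each kind of site, for distal peaks without an ARE, peaks without an ARE within 2 kb of a TSS, and flanks without an ARE; bars give the share and error bars the 95% Wilson interval. The AP-1 and weak-centred palindromes were in larger shares of both peak sets than of flanks. The altered second base was not, but it is counted here only in regions without either palindrome, which are fewer among the peaks. None of the 3 was held by 79.4% of flanks against 20.4% of the distal peaks.

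Flanking DNA gave the background. Stretches of the same length as each peak were taken 2 kb outside both edges, which gave 993 flanks, and 709 of them held no ARE. The AP-1 palindrome was in 7.35% (5.89 to 9.14%) of flanks and in 6.49% (4.90 to 8.55%) of flanks without an ARE. The share in ARE-free distal peaks was thus many times that of the DNA around them. In all 5673 searched peaks the share with the palindrome was 75.0%, which includes every full ARE by construction.

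The weak-centred palindrome was held by 46.99% (41.1 to 53.0%) of the 266 peaks without the AP-1 palindrome and by 20.9% (16.1 to 26.5%) of the 235 with it. Its share was 6.04% (4.72 to 7.70%) in flanks and 13.9% in all searched peaks. With GC after it, the contrast was wider: 39.5% (33.8 to 45.5%) of the 266 peaks held TGATTCAGC or TGAATCAGC, against 0.504% (0.215 to 1.17%) of flanks and 1.46% (1.07 to 1.98%) of the 2745 distal peaks with a full ARE. Distal peaks with a degenerate ARE and no AP-1 palindrome, 553 in number, lay between, at 10.3% (8.04 to 13.1%).

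Of the pair, TGATTCAGC was in 72 of the 266 peaks and TGAATCAGC in 33. Flanks held the first in 5 of 993 and the second in 0 of 993, which allows a share of up to 0.302%. Counting in each peak the site nearest to the centre, T was the middle base in 68.6% (59.2 to 76.7%) of the 105 weak-centred sites with GC. For comparison, C was the middle base of 80.7% (79.1 to 82.1%) of the full AREs in distal peaks, so that a pyrimidine on the strand that reads towards GC was the more frequent in both.

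Peaks within 2 kb of a TSS took no part in the word search and held the same sequence. Among 134 such peaks with neither an ARE nor the AP-1 palindrome, 18.7% (13.0 to 26.1%) held the weak-centred palindrome followed by GC. In 270 flanks of peaks of this class, also without an ARE or palindrome, the share was 0.741% (0.203 to 2.66%). The intervals of peaks and flanks did not overlap.

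The altered second base differed less between peaks and flanks. As a 7-base form it was in 22.6% (17.9 to 27.9%) of the peaks without the AP-1 palindrome and in 10.6% (8.81 to 12.6%) of flanks. As the sole form it was in 7.78% of all 501 peaks and 8.74% (6.88 to 11.1%) of ARE-free flanks. Regions with either palindrome cannot count as the sole form, and these were a larger part of the peaks than of the flanks. Followed by GC, as at BICDL1, the altered second base was in 6.77% (4.32 to 10.4%) of the peaks without the palindrome and 0.504% of flanks.

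The search for 8-base words covered the central 200 bp of peaks and flanks, each word counted once per region and on both strands. It led to the weak-centred form. A further search of the 141 peaks with neither palindrome gave words of the altered second-base form. Of these, TTACTCAG was in 8.51% of the 141 peaks and 1.07% of their flanks. In peaks with the palindrome the first word was TGAGTCAT, in 56.2% of 235 peaks and 1.29% of their flanks. Words from the palindrome come first there by the grouping, since these peaks were chosen to hold it and their flanks were not. In peaks without the palindrome, the first word was TGATTCAG, in 26.7% of 266 peaks and 0.759% of their flanks. The next was GATTCAGC, in 25.6% and 0.190%. The word TTTGCTGA, in 12.4% of these peaks and 0.380% of flanks, holds TGCTGA, the core read by MAF proteins, with a run of T before it.

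How near each peak came to a full ARE was measured as the smallest number of differences from TGACTCAGC or TGAGTCAGC over all 9-base windows of the central 200 bp. A window 1 base away was found in 338 of 501 peaks, or 67.5% (63.2 to 71.4%), and in 8.32% of ARE-free flanks. By group it was found in 88.5% of peaks with the palindrome and in 48.9% of peaks without it. The first share follows largely from the grouping, because the palindrome itself matches 7 of the 9 bases. Of 45 palindromes in ARE-free flanks, 62.2% were 1 base from a full ARE at one end or the other. Within a single mismatch, positions 5 to 7 cannot differ in these peaks because such a site would still be an ARE, and positions 8 and 9 cannot differ where the palindrome is absent.

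In peaks with the palindrome the differing base was at position 8 in 84 and at position 9 in 89, the bases that form the GC. In peaks without it the differing base was at position 4 in 97 of 266, at position 2 in 20, at position 3 in 9 and at position 1 in 4. Position 4 was the differing base in 0 of 709 ARE-free flanks, which allows a share of up to 0.423%, while position 3, the most frequent in flanks, was the differing base in 35. In the 134 ARE-free peaks near a TSS without the palindrome, position 4 differed in 21.

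**Figure D2:**
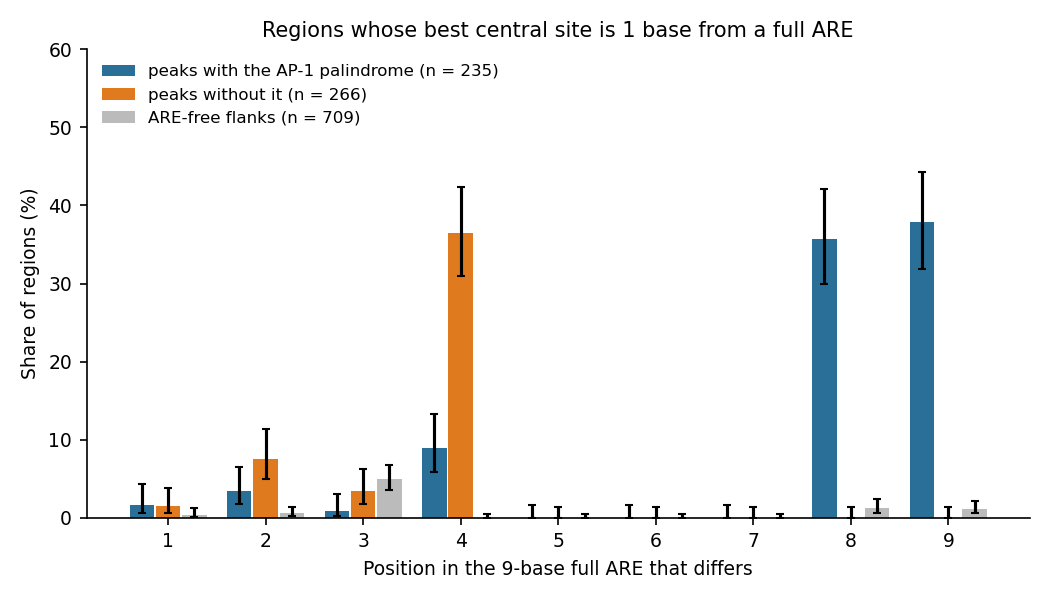
Share of regions (%, vertical axis) whose best 9-base window in the central 200 bp had 1 mismatch to a full ARE, by the position of that mismatch (horizontal axis), for distal ARE-free peaks with and without the AP-1 palindrome and for ARE-free flanks; error bars are 95% Wilson intervals. Peaks without the palindrome stand out at position 4, with 97 of 266. Peaks with it are high at positions 8 and 9, the bases outside the palindrome by which they were grouped. Positions 5 to 7 are empty because of how the peaks were chosen.

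The sites lay at the peak centres. The nearest AP-1 palindrome was a median of 32.5 bp (27 to 40) from the centre of the 235 peaks and within 50 bp in 66.8% (60.6 to 72.5%). In the flanks that held one, the median was 99 bp (88.5 to 126) from the centre of the flank. The weak-centred palindrome was a median of 35.5 bp (28.5 to 40.5) from the centre in the 125 peaks without the AP-1 palindrome and 98.8 bp (73.5 to 131) in flanks. For the altered second base the median was 37 bp (21 to 52.5) in 39 peaks and 86 bp (59 to 129) in flanks. Full AREs in distal peaks lay a median of 29 bp (27.5 to 30.5) from the centre, a little nearer than the AP-1 palindrome, with intervals that overlapped.

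**Figure D3:**
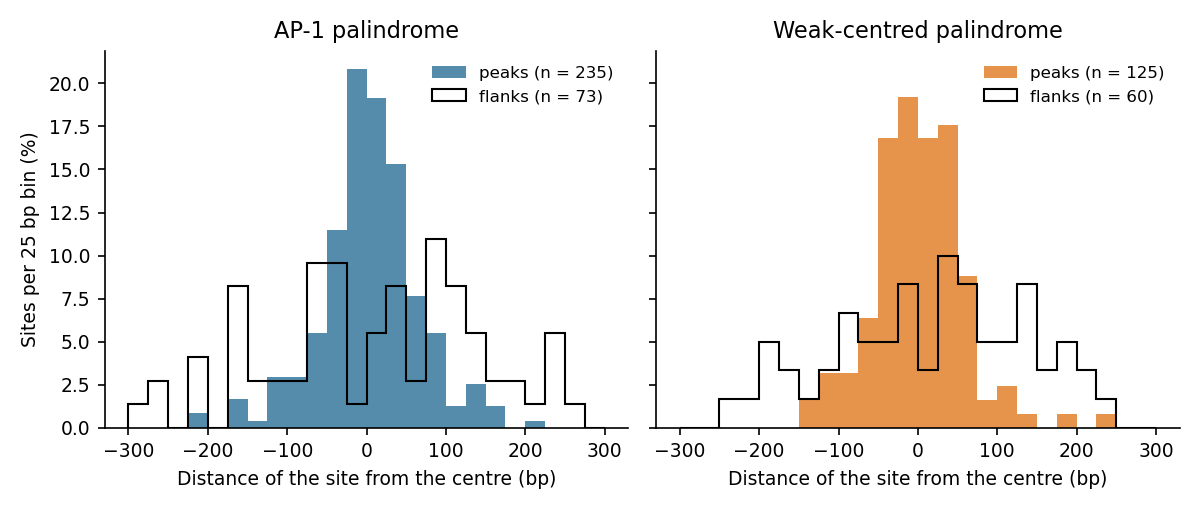
Position of the site nearest to the centre (bp, horizontal axis) as a share of sites per 25 bp bin (vertical axis), for the AP-1 palindrome in 235 peaks and the weak-centred palindrome in 125 peaks, filled, and in the flanks that held them, outlined. Both forms peak at the centre of the peaks and are spread over the flanks.

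The bases beside the AP-1 palindrome were not even. The palindrome reads alike on both strands, so each of 235 palindromes has 2 ends, 470 in all. The base after TGA(G/C)TCA was T in 50.0% (45.5 to 54.5%) of ends, G in 26.0%, C in 18.9% and A in 5.11% (3.46 to 7.49%). In ARE-free flanks, with 90 ends, T followed in 26.7% (18.6 to 36.6%) and A in 28.9% (20.5 to 39.0%). The depletion of A and the excess of T were both outside the intervals of the flanks. These intervals count the 2 ends of a palindrome as separate cases, so they may be too narrow. G followed by C is absent by the choice of peaks.

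The pair TC was at 20.2% of ends and GG at 17.0%, each against 5.56% in flanks. Taken per palindrome, 87.7% (82.8 to 91.3%) were 1 base from a full ARE at one end or the other, against 62.2% (47.6 to 74.9%) of 45 palindromes in flanks. T stood at both ends of 25.5% of palindromes and of 4.44% (1.23 to 14.8%) in flanks. In ARE-free peaks near a TSS, T followed at 46.2% (38.6 to 54.0%) of 158 ends and A at 3.16% (1.36 to 7.19%). One palindrome was present in 176 peaks and 2 in 43, and 16 peaks held more, up to 14 in an intron of WNT9A, a WNT ligand gene, at chr1:228122248-228123020, a peak singled out after its count was seen.

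Scores were low in this class. The 501 peaks had scores from 50.02 to 622 with a median of 70.3 (67.1 to 73.8), against 78.3 (75.4 to 81.2) for 888 distal peaks with a degenerate ARE only and 102 (98.6 to 105) for 2745 with a full ARE. These 3 intervals did not overlap. A score of at least 100 was reached by 112 of the 501, or 22.4% (18.9 to 26.2%), and by 42.8% of all distal peaks. At a score of at least 200 stood 17, or 3.39%, of these peaks and 18.6% of full ARE peaks.

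Between the peaks with and without the AP-1 palindrome the scores overlapped widely. With it the quartiles were 59.7 and 103 around a median of 73.8 (68.2 to 79.6), and without it they were 55.2 and 89.6 around a median of 67.3 (63.5 to 72.2). The intervals of the medians overlapped. Peaks with the weak-centred palindrome had a median of 71.6 (67.2 to 80.1) and those with the altered second base 72.5 (59.9 to 89.6), near the value with the AP-1 palindrome. The 102 peaks with none of the 3 had a median of 61.2 (55.9 to 65.5), below the intervals of the AP-1 and weak-centred kinds, and 49.0% of them scored under 60, against 26.0% of peaks with the AP-1 palindrome.

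**Figure D4:**
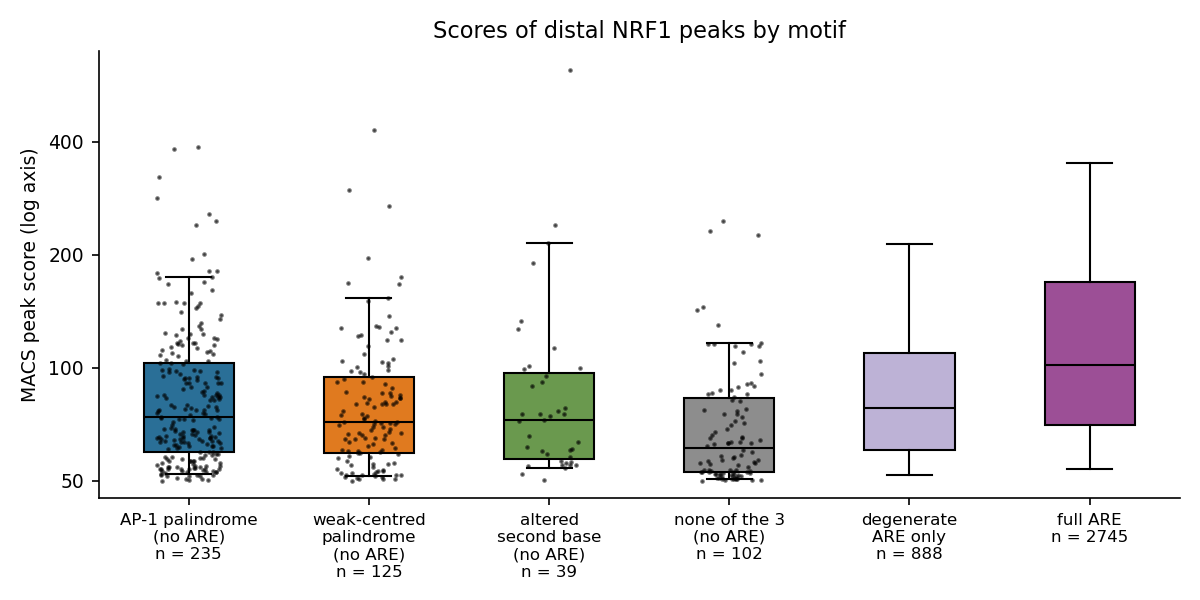
MACS score (vertical log axis) of distal peaks by motif: the 4 kinds without an ARE, with each peak as a point, then peaks with a degenerate ARE only and with a full ARE. Boxes span the quartiles with the median as a line, and whiskers reach the 5th and 95th percentiles; medians run from 61.2 for peaks with none of the 3 forms to 102 for peaks with a full ARE.

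The share of distal peaks without an ARE fell with the score, from 21.8% of 724 peaks scored 50 to 60, through 12.0% of 681 scored 80 to 100, to 2.91% of 585 scored 200 or more. Peaks with none of the 3 forms were 31.6% of the ARE-free peaks in the lowest range. They were 16.1% at scores of 60 to 80, 15.9% at 80 to 100 and 15.6% at 100 to 150. At 150 to 200 they were 0 of 18, and at 200 or more 3 of 17. Distal peaks without an ARE were also narrower, with a median width of 442 bp against 512 bp for full ARE peaks, and 390 bp for those with none of the forms. A shorter sequence holds fewer matches to any motif, and the part of width in these shares was not tested.

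**Figure D5:**
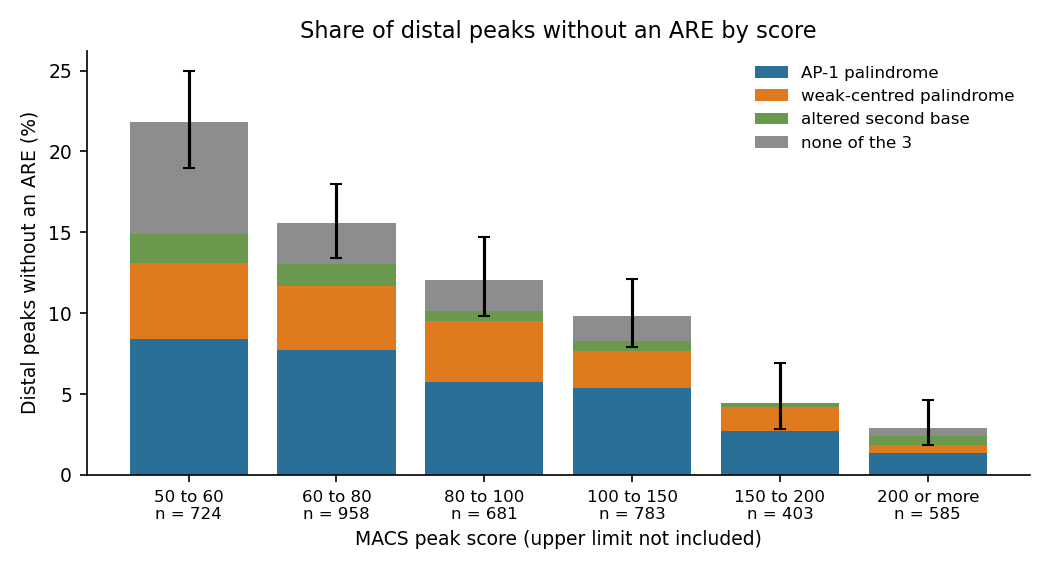
Share of distal peaks without an ARE (%, vertical axis) by range of the MACS score (horizontal axis), stacked by the kind of site, with the 95% Wilson interval of the total as an error bar. The total falls from 21.8% to 2.91% over the 6 ranges, and the grey part, peaks with none of the 3 forms, is widest in the lowest range.

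Base composition differed between the kinds. The GC content of peaks with the AP-1 palindrome had a median of 45.2% (43.9 to 46.2%), and that of peaks without it 40.7% (38.9 to 42.2%). Peaks with the weak-centred palindrome had the lowest median of the 4 kinds, 38.5%, and the value for full ARE peaks was 43.3%.

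Other motifs were searched on both strands in the same way. TGCTGA, the core read by MAF proteins, was in 61.3% (55.3 to 66.9%) of peaks without the palindrome, 43.0% (36.8 to 49.4%) of peaks with it and 24.4% (21.8 to 27.1%) of flanks. It overlaps the weak-centred site when that site is followed by GCA, and it was in 85.6% of peaks with that site and 35.3% (26.7 to 44.9%) of peaks with none of the 3 forms. GGAATG, the core bound by TEAD factors, was in 32.1% (28.2 to 36.3%) of the 501 peaks, 31.8% of full ARE peaks and 21.2% (18.8 to 23.9%) of flanks. TGTGGTT, bound by RUNX factors, was in 12.6% (9.95 to 15.8%) and in 8.26% (6.70 to 10.1%) of flanks, with intervals that overlapped slightly.

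Several motifs had shares whose intervals overlapped those of flanks: CCAAT, the box bound by NF-Y, in 45.1% against 49.2%, AGATAA, bound by GATA factors, in 24.4% against 26.0%, and GAANNTTC, a pair of heat shock units, in 16.6% against 12.4%. The core of the CTCF motif was in 8 peaks, or 1.60% (0.811 to 3.12%), against 0.101% (0.0178 to 0.568%) of flanks and 0.291% of full ARE peaks. GGGCGG, the GC box bound by SP factors, was in 10.8% of these peaks, 7.05% of flanks and 36.0% (29.9 to 42.6%) of ARE-free peaks near a TSS.

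AREs just outside the edges were counted next. Within 250 bp beyond either edge an ARE was found for 28.1% (24.4 to 32.2%) of the 501 peaks and for 31.3% (28.0 to 34.8%) of ARE-free flanks, and a full ARE for 10 peaks, or 1.996% (1.09 to 3.63%), and 0.987% (0.479 to 2.02%) of flanks, with overlapping intervals in both cases. Another NRF1 peak that held an ARE had its centre within 5 kb of 35 peaks, or 6.99% (5.07 to 9.56%), against 7.09% (5.58 to 8.97%) of peaks with a degenerate ARE only and 4.01% (3.34 to 4.81%) of full ARE peaks. The median distance to such a peak was 125 kb (96.99 to 145).

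Most of the peaks lay in introns. By their centres 311 of 501, or 62.1%, were intronic, 171 lay between genes and 19 in exons, and the intronic share of all distal peaks was 59.5%. The median distance to the nearest TSS was 10.9 kb (10.2 to 12.6), and 68.5% lay within 20 kb of one. At the 2 kb limit, the nearest peak outside was 2014.5 bp upstream of PPM1B, a protein phosphatase gene, with a score of 55.7 and no palindrome. The nearest ARE-free peak inside was 1965 bp upstream of ENSG00000286959, with a score of 51.6 and the palindrome.

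Gene by gene, the highest score of the class, 622, belonged to the peak at chr12:120524451-120525106 in an intron of BICDL1, an adaptor for dynein transport, 3.78 kb upstream of its nearest TSS. It ranked 70 among all peaks, and its altered second base was followed by GC. The next, 430, was in an intron of ABCB9, a lysosomal peptide transporter, at chr12:123410087-123410892, with TGAATCAGC 10.5 bp from the centre. This peak shared a run of 30 bases with 27 other peaks, and copies of 1 sequence are not independent cases. The peak in an intron of CFAP54, a gene of cilia, at chr12:96894753-96895351, scored 298, with TGATTCAGC 38 bp from the centre.

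Further peaks without the palindrome were at TMEM17, another ciliary gene, with a score of 247 in an exon at chr2:62728895-62729485, and at ZFHX3, a zinc finger homeobox factor, with a score of 240 in an intron at chr16:73210584-73211071. The TMEM17 peak held none of the 3 forms. H1-2, a linker histone gene, had one 9.69 kb upstream at chr6:26066097-26066684, with a score of 215 and TTACTCAGC 8.5 bp from the centre. BCL2L13, a mitochondrial BCL2 family gene, had one in an intron at chr22:18115662-18116400, with a score of 197 and TGAATCAGC, and it too shared 30 bases with 27 other peaks. A peak in an intron of the non-coding gene ENSG00000224635 at chr20:37037242-37037901 scored 226 and shared 30 bases with 56 other peaks.

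With the palindrome, the highest score was 387, in an intron of SCHIP1 at chr3:159590100-159590857, 16.1 kb upstream of the nearest TSS. Its nearest palindrome was 116.5 bp from the centre, unlike most of the 235. Among the first 10, the palindrome lay further out at SEC14L1, 165.5 bp, and near RAB31, 163.5 bp. In the others it lay nearer. The next peak, with a score of 382, was 6.61 kb upstream of ABCC2, the pump that exports glutathione conjugates, at chr10:101535419-101536165. Then came a peak near RNU6-450P, with a score of 323, at chr17:57930335-57931127, 15.4 kb from the nearest TSS of VMP1, which acts in autophagosome formation. It shared 30 bases with 42 other peaks. An intron of SMYD3, a lysine methyltransferase, held a peak with a score of 283 at chr1:246319871-246320419, and a peak 21.3 kb downstream of a TSS of SEC14L1 scored 258 at chr17:75229776-75230411.

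The remaining 5 of the first 10 scored from 181 to 247. Centres in an exon were found for the peak within PRKCH, a protein kinase C gene, at chr14:62004020-62004689 with a score of 247, and for that within SH3BP5 at chr3:15310964-15311617 with a score of 240. Whether the exons belong to these genes was not checked, and ENSG00000258989 also spans the first centre. Other peaks of the 5 were 13.9 kb from RAB31, a RAB GTPase gene, at chr18:9869675-9870226, and 126 kb from LINC02778 at chr1:60721236-60721777. The last was 35.9 kb upstream of CXCL8, the gene of the chemokine interleukin 8, at chr4:74570058-74570654.

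Genes of 5 lists were looked for among the nearest coding genes. Of 22 antioxidant genes, 2 were nearest to 3 peaks, or 0.599% (0.204 to 1.75%) of 501, against 0.435% of all distal peaks. ABCC2 had a second peak in its intron, 2.41 kb downstream of the TSS, at chr10:101544625-101545320, with a score of 115 and the AP-1 palindrome, as in the first. Other NRF1 peaks that held an ARE had their centres 3.98 kb from that of the first and 1.08 kb from that of the second. SLC7A11, the cystine transporter that feeds glutathione synthesis, had a peak of 223 bp 10.4 kb upstream at chr4:139173780-139174002, with a score of 83.5 and TGATTCAGC 5 bp from the centre.

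Of 50 proteasome genes, PSMD6, a subunit of the regulatory particle, was nearest to 1 peak, or 0.200% (0.0352 to 1.12%) against 0.0968% of all distal peaks. It lay 6.78 kb upstream at chr3:64016251-64016676, with a score of 145 and none of the 3 forms. Of 15 AP-1 and small MAF genes, JUN and FOSL2 were nearest to 1 each, both with the AP-1 palindrome, or 0.399% (0.110 to 1.44%) against 0.194% of all distal peaks. That of JUN, 29.7 kb away at chr1:59219814-59220161, scored 65.7, and that of FOSL2, 49.8 kb upstream at chr2:28565276-28565681, scored 65.4. The 25 genes of the autophagy list, mostly ATG8 family, receptor and core ATG genes and without VMP1, and the 13 of the heat shock list were nearest to 0 of 501 peaks, which allows a share of up to 0.599%. VMP1 was the nearest coding gene of 2 of the 501 peaks and of 5 distal peaks. For all distal peaks the autophagy and heat shock counts were 3 and 1 of 4134, and none of the list shares stood outside the interval of the 501 peaks.

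Copies of 1 sequence were part of the class. A run of 30 bases was shared with another peak by 100 of 501, or 19.96% (16.7 to 23.7%), and by 28.6% of full ARE peaks. Upstream of PPIAL4A, PPIAL4B, PPIAL4D and PPIAL4E, genes of the cyclophilin A-like family on chromosome 1, near-identical peaks 7.52 to 7.64 kb from the TSS each held TGATTCAGC and scored from 80.3 to 169. These 4 peaks were chosen after their values were seen and cannot be counted as separate cases, since reads may be placed on any of the copies.

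MYC, which encodes a transcription factor of growth control, was the nearest coding gene of 5 of the 501 peaks, more than any other gene, and of 11 distal peaks in all. It was singled out after this count was seen. The 5 peaks, on chromosome 8, lay 66.8 kb upstream and 21.6 to 816 kb downstream of MYC and scored from 53.6 to 174. The AP-1 palindrome was in 3 of them and the weak-centred palindrome in the other 2. The highest of the 5 lay in an intron of PVT1, a long non-coding RNA gene, at chr8:128863635-128864297. Also on chromosome 8, an intron of ENSG00000253286, 22.4 kb from KLHL38, held a peak without the AP-1 palindrome that scored 270, and an intron of TPD52 one that scored 232.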

How the data were processed

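One NRF1 ChIP-seq library of MG132-treated HCT116 cells was analysed. The authors sequenced single-end reads, mapped them to hg19 with Bowtie2 (2.2.6) and called peaks with MACS (1.4.2), per the paper's methods and the submitters' processing notes. The deposited file gives positions and a score for each peak. The settings, duplicate handling and control of peak calling are not given in the sources used here. A call with another background would change which weak peaks are listed, and the class described here holds mostly low scores.

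From the 5683 peaks, 5 on unplaced contigs and 5 with undetermined bases were set aside. Sequences were read from the GRCh37 genome, and distances were taken from peak centres to TSSs of all GENCODE transcripts (v44lift37). Motif matches were exact, on both strands. A window 1 base from a full ARE was scored in the central 200 bp. Flanks with undetermined bases or overlapping a peak were left out (9). Shares have 95% Wilson intervals and medians have order-statistic intervals, computed with Python 3.11.15, numpy 2.4.6 and scipy 1.17.1. The motif search was tested on simulated data. Peaks named are the 10 highest-scoring with and without the palindrome, those nearest genes of the lists and those at the 2 kb limit. Peaks at MYC and the PPIAL4 genes, those with the most palindromes and the widest were added after their values were seen. Sequences are shown for 5 of each 10. The peaks, motifs and lists were chosen with earlier results of these data known. With 1 library, leaving out a replicate was not possible.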

Additional observations from a re-analysis of the deposited data

How the results depend on the processing

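No value here has a replicate error, and scores near the limit of the peak caller depend on its settings, so the number of ARE-free distal peaks is a property of this list. With a score of at least 100, 112 peaks remained, 6.32% of distal peaks, 54.5% of them held the AP-1 palindrome, and the median scores with and without it were 127 and 127. With the ARE searched in the central 200 bp alone, 754 peaks (18.2%) lacked it, 56.1% of these held the palindrome, and their median score was 84.5. With 250 bp added on each side, 8.71% lacked an ARE. Counting only the full ARE, a stricter form of the same length, left 1389 peaks (33.6%) without one. Of these, 41.0% held the palindrome, and the median score of those that did was 80.8. The 1389 peaks are the 501 without any ARE and the 888 with a degenerate ARE only. Searching the palindrome in the central 200 bp gave 41.5%, and flanks 5 kb out held it in 5.73%. Leaving out peaks that share 30 bases, an alternative added after the data were seen, put the ARE-free share at 13.3%. The weak-centred share of peaks without the palindrome was 52.9% at scores of at least 100, 47.3% without shared sequences and 42.5% in the central 200 bp, all 3 added after the data were seen. Distances from peak edges, a 5 kb limit, TSSs of coding genes alone and the palindrome or cyclic AMP element moved no share by more than its interval.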

Other observations

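The widest of the ARE-free distal peaks, 2850 bp at chr10:42385916-42388765, lay 258 kb from the nearest TSS and scored 70.3 with none of the 3 forms. It was chosen after its width was seen, and an ARE was absent from all of its length. The peaks with the most AP-1 palindromes after that of WNT9A were those nearest to LINCADL, at chr5:115264412-115264904, with 11, and ENSG00000237356, at chr14:53648331-53648673, with 7. Both scored under 100, at 66.1 and 56.5, and each shared 30 bases with 9 other peaks. CWH43 and MKLN1 were the nearest coding genes of 3 ARE-free distal peaks each, of 3 and 6 distal peaks in all.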
